A study of Mus musculus with 6 samples.

Results

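The genes followed here in mouse sciatic nerve are 9 that sense, take up, move and export sterols: Srebf1, Srebf2, Scap, Insig1, Insig2, Stard4, Abca1, Npc1 and Mylip. They were identified as every probe set whose platform annotation gave 1 of these symbols and no other, and the probe set with the highest mean over the 6 arrays stood for its gene. The 9 genes had 17 probe sets of 45101 on the array, and all 9 were among the 14550 of 18194 genes that passed a filter on low values and were tested. The nerves came from pups on postnatal day 2, the age at which Schwann cells begin to wrap axons with myelin. The double knockout (dKO) group held 3 samples labelled DhhCre+ HDAC1-2 dKO, in which the histone deacetylase genes Hdac1 and Hdac2 were knocked out in Schwann cells through a Cre recombinase driven by desert hedgehog (Dhh), and the labels give peripheral hypomyelination as their phenotype. The control group held 3 samples labelled DhhCre–, with no disease state. The labels do not say which floxed alleles the controls carried. All 6 samples were of mixed strain, their perineurium had been removed, and each was hybridised to 1 Affymetrix Mouse Genome 430 2.0 array. The RNA of all cells of the nerve is part of every value, and which cells had lost the deacetylase genes was not measured here.

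Levels are log2 expression. Changes are differences of group means, dKO minus control, with the standard error (SE) of the limma fit, and dKO 1 stands for replicate 1 of the dKO group. Hdac1 stood at 8.75, 8.97 and 8.85 in dKO 1, 2 and 3, against 10.48, 10.38 and 10.36 in control 1, 2 and 3. Hdac2 stood at 11.22, 10.81 and 11.19 in the dKO arrays, against 12.34, 12.33 and 12.33 in the control arrays, so both targeted genes were lower on every dKO array. Arrays correlated at r = 0.980 to 0.991 within dKO, at 0.981 to 0.988 within control and at 0.925 to 0.963 between the groups, over the tested genes. Sox10, the factor that defines the Schwann cell lineage, averaged 10.32 ± 0.37 in dKO and 10.68 ± 0.44 in control nerves (SD, n = 3 each) and did not pass the test (log2 change -0.36, SE 0.26, adjusted p = 0.371). The other 6 tested markers of the Schwann cell lineage were divided: Erbb3 and S100b fell, each by 1.33 (adjusted p = 0.00684 and 0.00761), Fabp7 and Ngfr rose by 1.95 and 1.004 (adjusted p = 0.00209 and 0.00419), and Cdh19 and Foxd3 were not called. The summed linear level of the 7, in which the brightest genes weigh most, was 5946 to 7198 in dKO and 8235 to 10231 in control nerves, without overlap. Their mean log2 level did overlap, at 9.35 to 9.70 in dKO and 9.49 to 9.68 in control nerves. Egr2, the factor that drives myelin genes, averaged 10.94 ± 0.56 in dKO and 12.68 ± 0.10 in control nerves (change -1.74, SE 0.26, adjusted p = 0.00246). Of the 7 tested markers of myelinating Schwann cells all 7 fell. Their expression summed on the linear scale ran from 10483 to 23096 in dKO and from 51598 to 55476 in control nerves. Where a gene is used mainly by myelinating cells, fewer such cells and less RNA per cell cannot be told apart in whole nerve.

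Cells measure their own cholesterol in the membrane of the endoplasmic reticulum. The transcription factors SREBP-1 and SREBP-2, encoded by Srebf1 and Srebf2, are held there by the escort protein Scap and by the retention proteins Insig1 and Insig2 when sterol is plentiful. When sterol is scarce, Scap carries the SREBPs to the Golgi, where proteases release the part that enters the nucleus and turns on genes of sterol synthesis and uptake, including Insig1, Stard4, Npc1 and Srebf2 itself. Excess sterol acts in the other direction: oxysterols activate the liver X receptors, which turn on the exporter gene Abca1 and Mylip, whose product marks lipoprotein receptors for degradation. Myelin is very rich in cholesterol, and a myelinating Schwann cell makes most of it itself.

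In dKO nerves 5 of the 9 genes were lower, among them the SREBP-2 gene and its targets Insig1, Npc1 and Stard4, and the sterol exporter gene was higher. Insig1 had the largest fall (log2 change -1.50), followed by Npc1 (-1.07), Srebf2 (-0.82), Stard4 (-0.76) and Mylip (-0.59), and Abca1 rose by 1.37. Srebf1, Scap and Insig2 did not pass the test. Of the 9 genes, 6 were called at an adjusted p under 0.05, 5 lower and 1 higher. Among all genes tested, 22.0% were called, 9.38% lower and 12.6% higher. The same 6 genes had no overlap between dKO and control values, 5 of them lower and 1 higher. Among all genes tested 40.9% had no overlap, 18.4% lower and 22.6% higher. The median change was -0.59 over the 9 genes and 0.01 over all genes tested. The labels do not say that the 3 samples of a group came from separate animals or pools, so the p-values reflect only how much these samples vary, which may be technical.

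**Figure D1:**
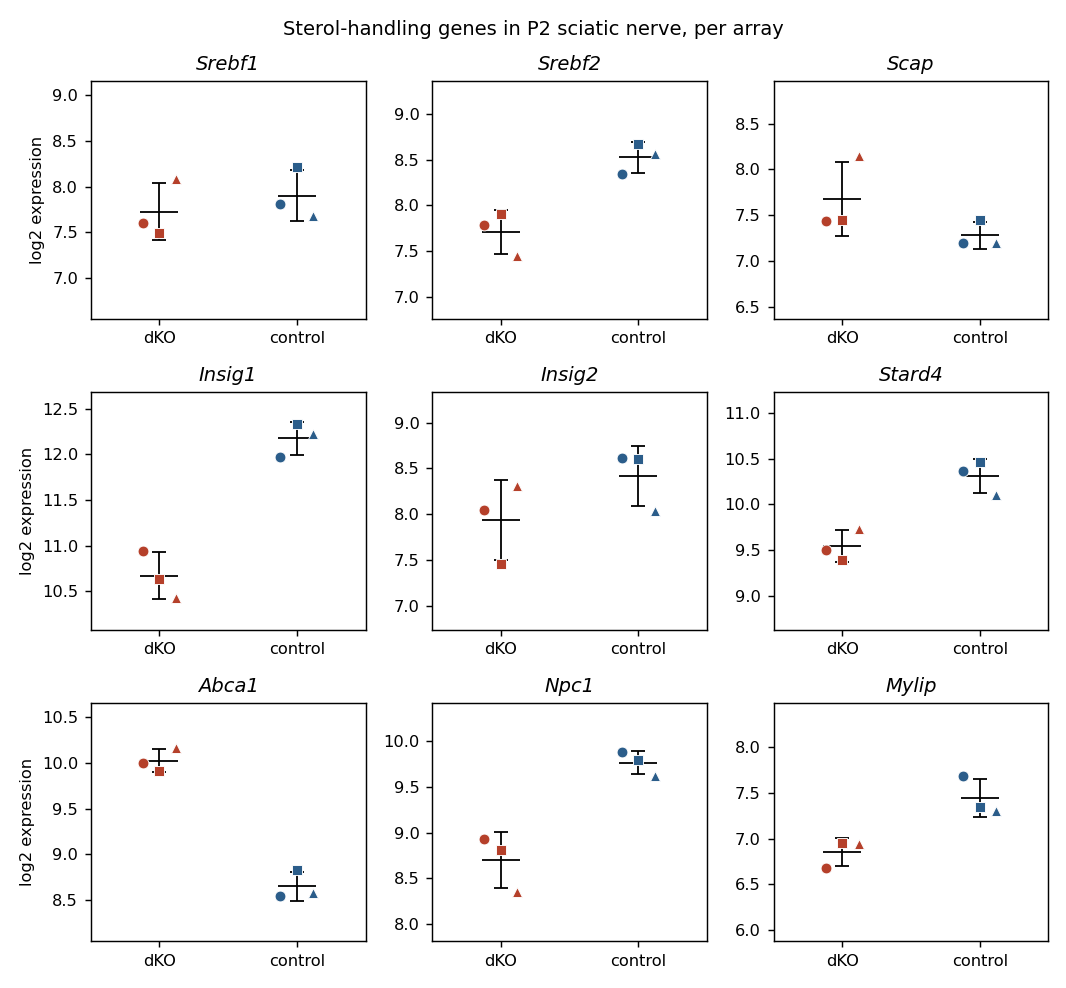
Log2 expression of each of the 9 genes (vertical axis, 2.6 log2 units in every panel) in dKO and control nerves, with replicate 1 as a circle, 2 as a square and 3 as a triangle, and the mean with SD as a line with bars. The groups are apart for Srebf2, Insig1, Stard4, Abca1, Npc1 and Mylip, and overlap for Srebf1, Scap and Insig2.

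The genes of the SREBP factors themselves differed in their calls. Srebf2, which encodes the factor that mainly drives sterol synthesis and uptake, stood at 7.78, 7.91 and 7.44 in dKO 1, 2 and 3, against 8.34, 8.68 and 8.56 in control 1, 2 and 3. The highest dKO value lay under the lowest control value. The change was -0.82 (SE 0.17, 95% confidence interval -1.21 to -0.42, adjusted p = 0.0114). The dKO level was 56.8% of that in control nerves. Its other probe set fell by 0.67 (SE 0.15, adjusted p = 0.0292 over all probe sets). Srebf1, which encodes the SREBP-1a and SREBP-1c isoforms and drives mainly fatty acid synthesis, stood at 7.61, 7.49 and 8.08 in dKO nerves, against 7.80, 8.22 and 7.68 in control nerves. Here dKO 3 was above control 1 and control 3, and the groups overlapped. The change was -0.17 (SE 0.21, interval -0.66 to 0.31, adjusted p = 0.600). Srebf1 has 1 probe set, so its isoforms have no separate values. Without dKO 3 the change was -0.35 and without control 2 it was -0.02, neither past the threshold.

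The difference between the changes of the paralogs was examined within arrays. Srebf1 minus Srebf2 was -0.17, -0.42 and 0.64 in dKO 1, 2 and 3, and -0.54, -0.46 and -0.88 in control 1, 2 and 3. Every dKO value was above every control value, though dKO 2 lay only just above control 2. The shift was 0.64 (SE 0.34), with p = 0.1 by an exact permutation test, two-sided (adjusted over the 2 gene pairs examined, 0.1). With 3 arrays per group no smaller p is possible. Without dKO 3 the shift was 0.33. These data therefore do not settle whether Srebf1 and Srebf2 changed by different amounts.

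Start-site windows from RefSeq were available for 7 of the 9 genes, 12 windows in all on build GRCm38.p6, each from 250 bases before to 50 bases after a start. Letters were searched on both strands: the sterol regulatory element as TCACNCCAC, the liver X receptor element as AGGTCA repeated after 4 bases, the NF-Y box as CCAAT and the E-box as CACGTG. The strict sterol element was in 0 of the 12 windows and in 1.24% of all 32851 windows. The exact direct repeat was in 0 of 12 and in 0.015% of all. No looser form of the repeat was searched, so a liver X receptor element with other letters would be missed and stay in lower case. A shorter form of the sterol element, TCACCCCA, which was added after the windows had been read, was in 1 of 12 windows, that of Srebf2, and in 1.56% of all. CCAAT was in 6 of 12 windows and 37.4% of all, and CACGTG in 4 of 12 and 7.15% of all, of which a pair are overlapping windows of Scap. The 250 bases before the start of 3 genes are shown because Srebf2 and Insig1 fell and Abca1 rose. Matches to any of these letter strings on either strand are in capitals.
Srebf2: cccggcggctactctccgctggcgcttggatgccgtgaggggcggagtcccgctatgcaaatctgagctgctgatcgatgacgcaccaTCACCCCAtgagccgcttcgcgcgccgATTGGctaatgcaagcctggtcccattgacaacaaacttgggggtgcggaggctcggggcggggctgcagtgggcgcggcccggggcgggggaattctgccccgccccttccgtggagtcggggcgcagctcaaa
Insig1: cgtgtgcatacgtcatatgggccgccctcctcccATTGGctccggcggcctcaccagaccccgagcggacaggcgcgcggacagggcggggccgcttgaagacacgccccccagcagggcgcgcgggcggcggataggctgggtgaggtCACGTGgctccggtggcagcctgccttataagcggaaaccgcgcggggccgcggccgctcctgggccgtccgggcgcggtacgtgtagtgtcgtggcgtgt
Abca1: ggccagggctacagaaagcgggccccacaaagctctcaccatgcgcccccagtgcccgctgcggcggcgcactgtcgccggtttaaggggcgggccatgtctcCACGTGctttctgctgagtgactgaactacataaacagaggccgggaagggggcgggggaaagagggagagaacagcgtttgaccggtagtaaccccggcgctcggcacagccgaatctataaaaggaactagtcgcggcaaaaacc
The Srebf2 stretch lies at chr15:82147019-82147268 on the plus strand and holds TCACCCCA from position -162 and CCAAT, read on the other strand, from -135, counted from the start. The Insig1 stretch lies at chr5:28071162-28071411 on the plus strand, with CCAAT on the other strand from -216 and CACGTG from -101. The Abca1 stretch lies at chr4:53159896-53160145 on the minus strand and holds CACGTG from -147. The E-box letters were thus present both in the gene with the largest fall and in the gene that rose. A match of letters is not a binding site, and a missing match says only that these letters are not in this window.

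Of the proteins that hold SREBPs in the endoplasmic reticulum, the 2 Insig genes and their partner Scap had unlike calls. Insig1, itself a target of SREBPs, stood at 10.94, 10.64 and 10.43 in dKO 1, 2 and 3, against 11.97, 12.33 and 12.22 in control 1, 2 and 3. The groups were more than 1.0 log2 unit apart on all arrays. The change was -1.50 (SE 0.18, interval -1.91 to -1.10, adjusted p = 0.000879). The dKO level was 35.3% of that in control nerves. Of all genes tested, 95.4% had a smaller change in either direction.

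Insig2, which is not induced by SREBPs, stood at 8.04, 7.46 and 8.31 in dKO nerves, against 8.61, 8.60 and 8.04 in control nerves. The groups overlapped, with dKO 3 above control 3. The change was -0.48 (SE 0.25, interval -1.06 to 0.10, adjusted p = 0.221). All 3 Insig2 probe sets had a negative change, from -0.60 to -0.45, and none was called. The interval still includes a fall to less than 50% of the control level, so a change of Insig2 was not detected and a sizeable fall lies within the interval.

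Insig1 minus Insig2 was 2.897, 3.18 and 2.12 in dKO 1, 2 and 3, and 3.36, 3.73 and 4.18 in control 1, 2 and 3. The dKO values were all lower, and the shift was -1.03 (SE 0.40, exact two-sided permutation p = 0.1, adjusted 0.1, the smallest possible). It was -0.72 without dKO 3 and -1.25 without dKO 2.

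Scap, the sterol-sensing escort of SREBPs, stood at 7.43, 7.45 and 8.14 in dKO nerves, against 7.19, 7.45 and 7.20 in control nerves. Only dKO 3 lay clearly above the controls. The change was 0.40 (SE 0.21, interval -0.09 to 0.88, adjusted p = 0.232), and 0.16 without dKO 3. The second, dim Scap probe set had a change of -0.08.

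Both genes for sterol movement inside the cell were lower. Npc1, the membrane protein that exports cholesterol from lysosomes after lipoprotein uptake, stood at 8.93, 8.81 and 8.35 in dKO 1, 2 and 3, against 9.88, 9.80 and 9.63 in control 1, 2 and 3. All dKO values were under all control values, and dKO 3 was the lowest. The change was -1.07 (SE 0.18, interval -1.49 to -0.65, adjusted p = 0.00452), a level 47.6% of that in control nerves. Stard4, a soluble carrier that moves cholesterol between membranes, stood at 9.50, 9.40 and 9.73 in dKO nerves, against 10.36, 10.46 and 10.10 in control nerves. Here dKO 3 was the highest dKO array and control 3 the lowest control array, without overlap. The change was -0.76 (SE 0.16, interval -1.13 to -0.39, adjusted p = 0.0116), and the 3 Stard4 probe sets fell by 0.92, 0.77 and 0.76, all called.

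Of the liver X receptor targets named above, Abca1 rose and Mylip fell. Abca1, the transporter that loads cellular cholesterol onto apolipoproteins, stood at 10, 9.91 and 10.16 in dKO 1, 2 and 3, against 8.54, 8.83 and 8.57 in control 1, 2 and 3. Its dKO values were close to each other and more than 1.0 log2 unit above every control value. The change was 1.37 (SE 0.15, interval 1.03 to 1.71, adjusted p = 0.00062), a 2.59-fold higher level. The other 2 Abca1 probe sets rose by 1.34 and 1.26, so all 3 were called.

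Mylip, the ubiquitin ligase also known as Idol, stood at 6.67, 6.95 and 6.94 in dKO nerves, against 7.69, 7.35 and 7.31 in control nerves. The groups did not overlap, and control 1 was the highest of the controls. The change was -0.59 (SE 0.16, interval -0.97 to -0.22, adjusted p = 0.0334). This call was lost without dKO 1, dKO 2, control 1, control 2 or control 3 (adjusted p = 0.111, 0.0692, 0.0944, 0.0680 and 0.0507), and the single Mylip probe set did not pass when adjusted over all probe sets (adjusted p = 0.0524). Leaving out any one array ended no call among the other 5 called genes.

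Macrophages use Abca1 strongly, so their markers were read beside it. Of 9 macrophage markers tested, 3 were called, all higher (Aif1, Tyrobp and C1qa), and the median change was 0.75. The call of Aif1 was lost without dKO 2, control 2 or control 3, and that of Tyrobp without dKO 2 or any one control array. Every one of the 9 reached a log2 level of 4 on some array. Their summed linear level was 3258, 3463 and 7273 in dKO 1, 2 and 3, and 2393 to 2776 in control nerves, so it was highest by far in dKO 3. The sums of dKO 1 and dKO 2 were also above every control sum. The Abca1 change was 1.31 without dKO 3 (adjusted p = 0.00279), which leaves those 2 arrays in the comparison. The part that cells other than Schwann cells had in the Abca1 level was not tested. Adipocytes use Insig1 and Srebf1 strongly. Of their 6 measured markers, Adipoq and Lep were under 4 on all arrays, and of the 4 tested 1 rose, Fabp4 (change 2.30), which endothelial cells and macrophages also use. Cidec, Retn and Lipe were not called (changes -0.28, -0.29 and 0.50). On the linear scale Fabp4 alone stood at 4576 to 7486 in dKO and 598 to 1885 in control nerves. The other 5 markers together summed to 102 to 106 in dKO and 90.4 to 117 in control nerves, so the groups overlapped without Fabp4.

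**Figure D2:**
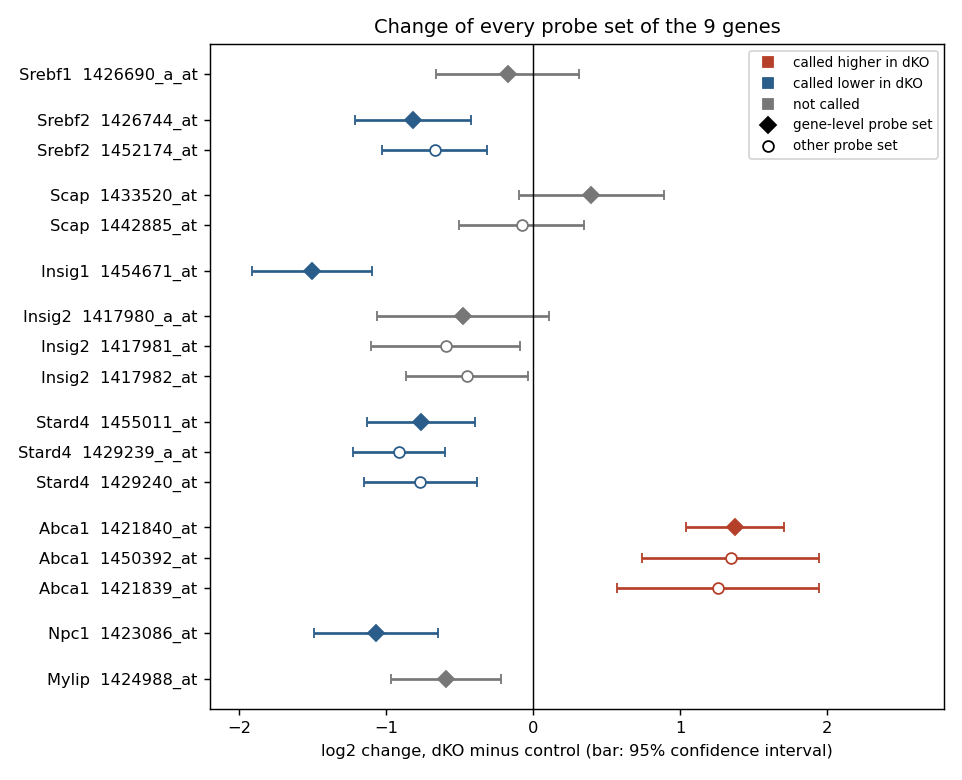
Log2 change (dKO minus control, horizontal axis) of all 17 probe sets of the 9 genes, with 95% confidence intervals and calls adjusted over all 45101 probe sets; diamonds are the probe sets used for the gene. All 3 Abca1 probe sets were called higher, all 3 of Stard4 and both of Srebf2 were called lower, and none of Insig2 was called.

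Where a gene had several probe sets, their changes had the same sign except for Scap. Of the 17 probe sets, 7 were called lower and 3 higher when adjusted over all 45101 probe sets, of which 11.7% were called. No gene had a probe set called in each direction. Insig1, Npc1, Mylip and Srebf1 rest on 1 probe set each.

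The 6 called genes had no overlap between the groups, so every dKO array had to lie away from the controls, and the distances are a description. The median distance from the control mean, taken over these 6 in the direction of each gene's change, was 0.82 in dKO 1, 0.94 in dKO 2 and 1.25 in dKO 3. Single genes did not follow a common order. Insig1 was farthest from control in dKO 3 (-1.74) and nearest in dKO 1 (-1.23), as was Npc1 (-1.42 and -0.83), whereas Stard4 was nearest in dKO 3 (-0.57) and Mylip was farthest in dKO 1 (-0.77).

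Among all genes tested, the 3 whose values followed Insig1 most closely over the 6 arrays were Osbpl1a, Ptpdc1 and Leprotl1 (Pearson's r = 0.9998, 0.998 and 0.997). Osbpl1a encodes an oxysterol-binding-protein relative. The 3 closest to Abca1 were Tmeff1, Chic2 and Zfp711 (r = 0.9997, 0.999 and 0.999). These correlations are descriptions over 6 arrays in 2 groups, and any gene with a large difference between the groups scores high: 555 genes exceeded 0.95 with Insig1 and 698 with Abca1.

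The surrounding sterol genes were grouped by role. On 5 lists of sensing partners, lipoprotein receptors, intracellular carriers, efflux genes and oxysterol genes, 47 of 54 genes were tested. Of these, 6 rose and 8 fell (29.8%, against 22.0% of all genes tested), with a median change of -0.05. Without dKO 1 the number lower was 5. Among 9 partners of the SREBP machinery, 1 was called: Spring1, a regulator of SREBP activation, had a change of -0.76 (SE 0.19, adjusted p = 0.0257). That call was lost without dKO 1, dKO 3, control 1 or control 2 (adjusted p up to 0.0904). Of the 3 Spring1 probe sets, 1 was called lower. Rnf145, a sterol-responsive ligase, had a change of -0.50 and missed the threshold (adjusted p = 0.0588), and the SREBP protease gene Mbtps1 had a change of -0.05.

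Of 4 lipoprotein receptor genes 3 were higher, among them Vldlr and Lrp8, whose proteins are targets of the Mylip ligase. Vldlr stood at 10.74, 10.62 and 10.83 in dKO nerves, against 9.44, 9.22 and 9.52 in control nerves (change 1.34, SE 0.15, adjusted p = 0.000641), and all 6 of its probe sets were called higher. Lrp8, the apolipoprotein E receptor 2, stood at 6.78, 6.93 and 6.88 in dKO nerves, against 5.86, 5.62 and 5.46 in control nerves (change 1.22, SE 0.15, adjusted p = 0.00106). Of its 3 probe sets, 2 were called higher. Lrp1, a large endocytic receptor, rose by 1.07 (SE 0.14, adjusted p = 0.00146) on 1 of 2 probe sets. Scarb1, the receptor for high-density lipoprotein, had a change of -0.20 (adjusted p = 0.587). Macrophage markers had the values given above. Of 8 fibroblast and perineurial markers 4 rose and 1 fell. Their summed linear levels were 23009 to 23194 in dKO and 17800 to 19373 in control nerves. Endothelial sums were 1253 to 1794 in dKO and 893 to 1201 in control nerves, with 0 of 6 markers called. Pericyte sums were 3046 to 4118 against 2291 to 2577, with 2 of 4 called higher. Neuron sums were 1822 to 2373 against 1237 to 1708, with 1 of 6 called higher. Skeletal muscle sums overlapped. The part of all these cells in the receptor levels was not tested.

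Of 16 genes of lysosomal and intracellular sterol transport, 3 fell and 2 rose. Osbpl1a fell by 1.67 (SE 0.20, adjusted p = 0.000849), and the sterol carriers Stard3 (change -0.99, SE 0.15) and Stard5 (-0.82, SE 0.15) fell too. Of the 4 Stard5 probe sets, 2 were called lower. Osbpl6, another oxysterol-binding-protein relative, rose by 1.43 (SE 0.24, adjusted p = 0.00452). Osbpl8 rose by 0.58, a call lost without any one array except dKO 3 (adjusted p up to 0.0751). Npc2, the soluble lysosomal partner of Npc1, had a change of 0.17 (adjusted p = 0.444).

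Among 11 efflux and liver X receptor genes, with Abca1 itself not counted, 2 were called, both lower. Abcg1, the exporter that acts beside Abca1 and is also a liver X receptor target, stood at 5.99, 5.74 and 6.78 in dKO nerves, against 5.98, 6.82 and 5.82 in control nerves (change -0.04, SE 0.33, adjusted p = 0.949). Abca2 fell by 1.09 (SE 0.23, adjusted p = 0.0110). Apod, a lipid carrier of nerve, had a change of -1.23 (SE 0.33, adjusted p = 0.0298), which did not pass without dKO 1 or dKO 2 (adjusted p up to 0.0982). Of the 2 Apod probe sets, 1 was called lower. The liver X receptor gene Nr1h3 had a change of -0.27 (adjusted p = 0.207). Of 7 oxysterol and esterification genes, Cyp7b1, an oxysterol hydroxylase, fell by 1.34 (SE 0.19) and Nceh1, a cholesteryl ester hydrolase, fell by 0.86 (SE 0.19). Each has 3 probe sets, of which 2 were called lower. The Nceh1 call was lost without dKO 1 or control 2 (adjusted p up to 0.0567). The cholesterol hydroxylase gene Cyp46a1 rose by 0.86 (SE 0.22), a call lost without any one dKO array (adjusted p up to 0.0704).

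**Figure D3:**
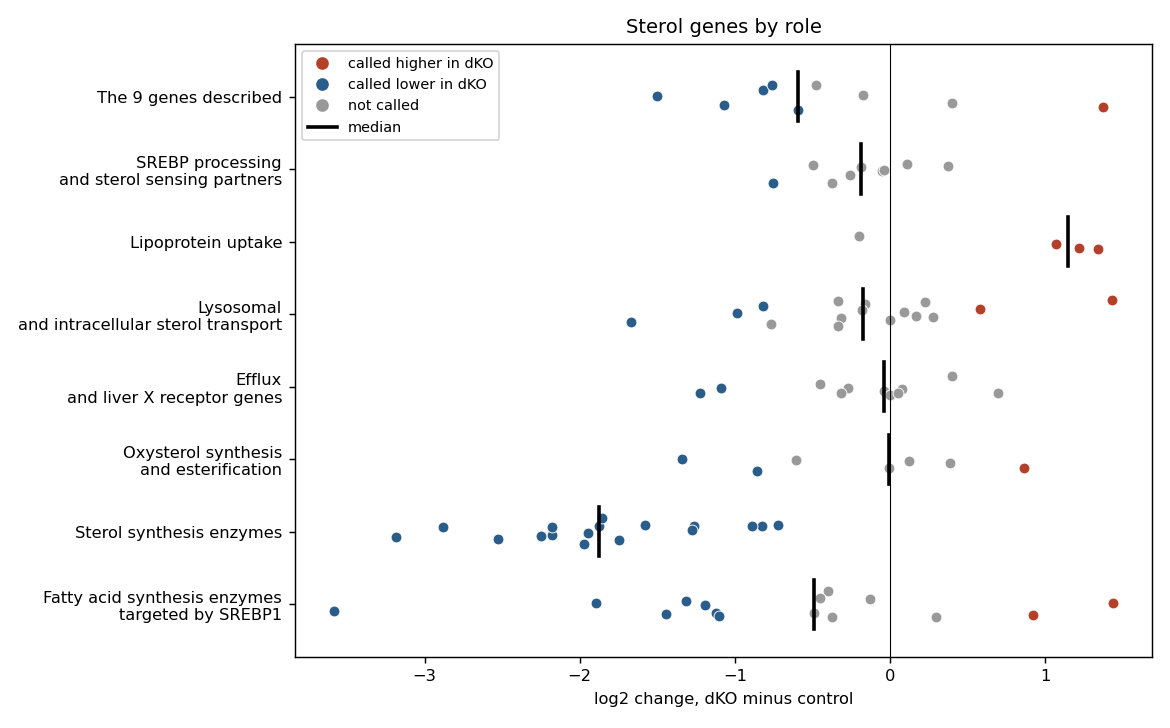
Log2 change (dKO minus control, horizontal axis) of each tested gene, for the 9 genes described and 7 lists of other sterol and lipid genes; colour gives the call and the black bar the median. The 17 sterol synthesis enzymes all lie below 0 and the 3 called lipoprotein receptor genes above 1.0.

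The enzymes that SREBPs control were set beside their regulators. All 17 tested sterol synthesis enzymes fell, with a median change of -1.88, and their falls ran from 0.73 (Mvk) to 3.19 (Lss). Msmo1, a sterol methyl oxidase, fell by 2.52 (SE 0.19). Fdps, which makes farnesyl diphosphate, fell by 2.88 (SE 0.37), and by 1.54 as the mean of its 2 probe sets. The call of Mvk was lost without dKO 1, dKO 2, control 1 or control 2 (adjusted p up to 0.0619). The fall of Insig1 lay within this range and those of Srebf2 and Stard4 near its small end. Of 15 fatty acid synthesis genes counted as SREBP-1 targets, 7 fell and 2 rose, with a median of -0.49. The elongase genes Elovl7 and Elovl6 fell by 3.59 and 1.90, and the desaturase gene Scd1 fell by 1.45. Another elongase gene, Elovl5, rose by 0.92, and Me1, the cytosolic malic enzyme gene, rose by 1.44. Srebf1 itself had the change of -0.17 given above.

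**Figure D4:**
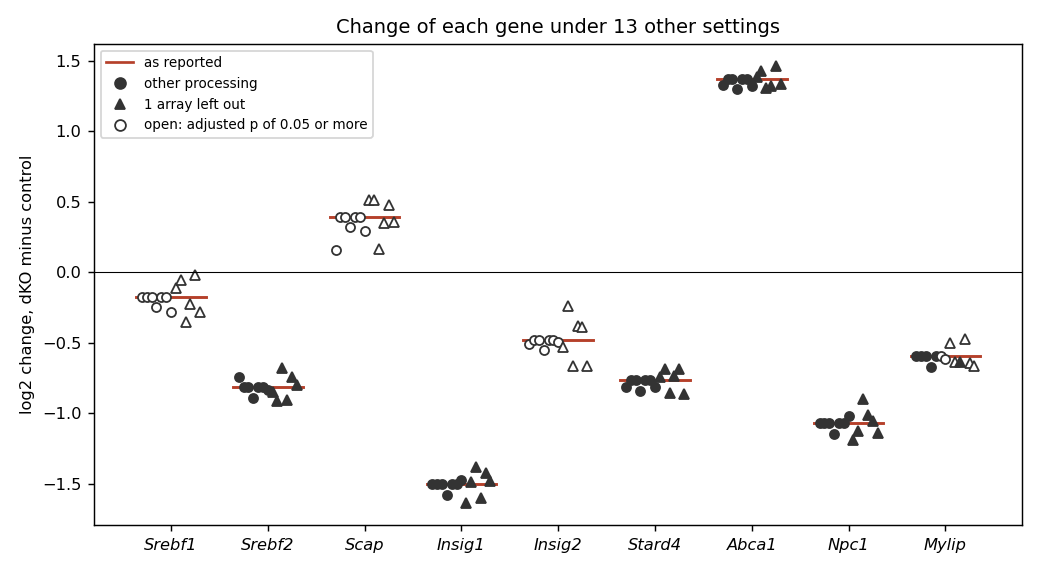
Log2 change (dKO minus control, vertical axis) of each of the 9 genes as reported (line), under 7 other processing settings (circles) and with each of the 6 arrays left out (triangles); open symbols did not pass the test. No gene changed sign, Insig1, Npc1, Srebf2, Stard4 and Abca1 were called throughout, and Mylip was not.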

How the data were processed

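Expression in 3 dKO and 3 control sciatic nerves was taken from the deposited log2 expression values per probe set. The submitters' processing notes name GCOS 1.2 and GCRMA, without settings. No label states the scale. It was taken as log2 because values ran only from 1.66 to 14.94, with the same median of 5.77 on every array, so a shift of all genes in one direction would not be seen. No depth applies to arrays, and their number limits the precision. Groups came from the sample titles.

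Names came from GEO's platform annotation, which gave 34958 of 45101 probe sets 1 symbol, 932 several and 9211 none used here. Symbols were updated through gene IDs in a RefSeq table of GRCm38.p6. A gene was represented by its probe set with the highest mean. Genes with a value of at least 4 on at least 3 arrays were tested with limma 3.58.1 (lmFit, eBayes) in R 4.3.3, two-sided, with Benjamini-Hochberg adjustment over all 14550 tested genes and no covariates. Probe sets were fitted and adjusted separately. Both fits call a change at an adjusted p under 0.05. The fit was tested on simulated data, where it called 48% of changes of 1 log2 unit and 91% of changes of 2. A gene that was not called can thus still have changed. The 9 genes and all lists were chosen with earlier results of these data known. Named genes were the 9 genes, the targeted genes, up to 3 called genes per direction of each list by size of change, Sox10 and Egr2, and the 3 genes most similar to Insig1 and to Abca1. Rnf145, Mbtps1, Scarb1, Npc2, Abcg1, Nr1h3, Mvk and single markers were named after their values were seen.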

Additional observations from a re-analysis of the deposited data

How the results depend on the processing

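The 9 genes kept their direction under all 13 alternatives. They included a mean over probe sets, no low-value limit, a limit of 6, centring on the median of tested genes and an intensity trend. The others were a replicate block, the level of Xist as a covariate, and each array left out. Xist, a transcript of female cells, was high on 2 dKO arrays and 1 control array, so it was not balanced between the groups. Insig1, Npc1, Srebf2, Stard4 and Abca1 also kept their calls, with adjusted p up to 0.00576, 0.0206, 0.0482, 0.0495 and 0.00369. Mylip lost its call with the replicate block (change -0.59, adjusted p = 0.0895), with Xist as a covariate (-0.61, adjusted p = 0.0683) and without 5 of the 6 arrays (changes over the 6 of -0.66 to -0.47). These settings leave fewer arrays or residual degrees of freedom, and the cause was not tested further. The number of the 9 genes called lower was 4 to 5, and 1 was called higher throughout. With an array left out, 2131 to 2872 genes were called in all, fewest without dKO 2, against 3198 with all arrays, and 5 to 8 of the other sterol genes were called lower. Same-numbered arrays did not deviate together (r = 0.04, -0.12 and -0.23), so the numbers were not treated as pairs, and not every array correlated best with its own number. The replicate block gave 2557 calls and also ended the calls of Osbpl8 (adjusted p = 0.0665) and Apod (0.0541). With the block the exact p of both paralog differences was 0.25, the smallest that 3 pairs allow. Centring moved the median change of all genes to -0.07 and the share of calls that were higher to 49.4%, against 57.3% as deposited. Values under the limit of 4 have little meaning as levels.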
